A study of Mus musculus with 8 samples.

Results

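The response of splenic CD4+ T cells to stimulation was compared between offspring of cadmium-exposed and control parents, gene by gene, as an interaction: the log2 change on stimulation in Cd offspring minus the log2 change in control offspring. Genes with a mean level of at least 0.5 RPKM (reads on the gene scaled to its transcript length and to the total of reads on genes) over the 8 libraries were tested, which kept 12605 of the 27179 genes in the table. Of these, 45 genes (0.357%) passed an adjusted p under 0.05 (limma, Benjamini-Hochberg over all genes tested). The interaction was positive for 38 of them (0.301% of the genes tested) and negative for 7 (0.0555%), and the lowest adjusted p was 0.00436. Of the 38 positive genes, 17 encode ribosomal proteins and 13 are copies of such genes, and the heat shock gene Hsph1 was the one protein-coding gene among the negative ones. The number of calls rested on single libraries: it was 2 without the stimulated Cd library 7, 3 without the stimulated control library 6, 27 without the unstimulated control library 6 and 28 without the stimulated control library 7, and it was 4 when the prior variance was not allowed to follow the expression level and 111 with voom on the recovered reads. All 45 interactions kept their sign under every alternative that tested them.

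The libraries came from spleens of C.Cg-Foxp3tm2Tch/J mice aged 8 weeks, a strain with a reporter allele at Foxp3. In every library Xist was at 49.3 to 67.1 RPKM and the Y-linked Ddx3y at 0.0105 RPKM or below. This is the pattern of female cells, so male offspring are not covered here. Control offspring (Ctr) had parents on normal water, and Cd offspring had parents given 10 ppm CdCl2 in drinking water around mating and during gestation. Cells were taken unstimulated (0 hours) or after 16 hours with anti-CD3/CD28 beads. The beads stand in for antigen by engaging the T cell receptor complex and the costimulatory receptor CD28. Per the study's methods, unstimulated cells were lysed at once, and no library was cultured for 16 hours without beads. Every change on stimulation given here therefore also holds any change from culture and from the time since isolation. Each of the 4 groups had 2 libraries, numbered 6 and 7. The titles repeat each number in both states of an exposure, and the study paired stimulated with unstimulated samples in its qPCR tests. Neither the labels nor the study's methods state which libraries share an animal or a litter, and the main fit used no pairing. A fit that paired same-numbered libraries within each exposure called 25 genes, 6 of them for ribosomal proteins, against 45 and 17. The p-values measure the spread between these libraries, which may be technical. With 2 libraries against 2, an exact permutation test could not go below p = 0.333 in any comparison of 2 groups, so the calls rest on the model's estimate of the spread, which borrows across genes.

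Between 15542732 and 25486791 reads per library fell on genes, and the 2 libraries of a group had a Pearson correlation of 0.983 to 0.990 across the genes tested. All 11 T cell markers on the list were expressed, Cd4 at 212 to 315 RPKM. The 8 B cell markers summed to 251 to 279 RPKM in unstimulated and 114 to 118 RPKM in stimulated libraries, nearly all of it from Ighm, while Ms4a1 and Ebf1 were listed at 0 in every library. Of 10 myeloid markers, 6 stayed below 1 RPKM in every library, and the hemoglobin genes Hba-a1 and Hba-a2 were listed at 0. Cd8a stayed at 0.160 RPKM or below, and the 8 CD8 and NK cell markers summed to 47.0 to 52.7 RPKM in unstimulated and 18.5 to 20.2 RPKM in stimulated libraries. Il2ra, which activated T cells express, was at 1.80 to 2.19 RPKM before and 94.0 to 117 RPKM after stimulation. It encodes CD25, and the study describes the cells as conventional T cells negative for CD25. The low level before stimulation may thus come from how the cells were isolated. None of these lists had a gene called for the interaction.

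Ribosomal proteins are the protein part of the cytosolic ribosome, and their mRNAs, like those of several translation factors and of Tpt1, carry a stretch of pyrimidines at the 5′ end (the 5′ terminal oligopyrimidine, or TOP, motif) through which growth signals regulate their translation as a group. Stimulated T cells enlarge and raise their translation before they divide. Heat shock proteins assist the folding of other proteins. HSF1, the main heat shock transcription factor, binds inverted repeats of GAA in the promoters of their genes and is activated by unfolded protein and by metals such as cadmium.

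The bases around the annotated start are shown for called genes of both kinds, because the TOP motif and the heat shock element are the sequence features for which these families are known. For the first set, each line gives the 15 bases before and the 15 bases from the start on, in the transcribed direction. They are from RefSeq on build GRCm38.p6, with the longest run of C or T in capitals. The capitals can lie wholly before the start, as in Rpl27, and do not by themselves mark a TOP motif.
Rps10 (chr17:27635230-27635259, minus strand): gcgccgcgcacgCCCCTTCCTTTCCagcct
Rps27 (chr3:90213634-90213663, minus strand): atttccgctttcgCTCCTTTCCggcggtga
Rplp2 (chr7:141447636-141447665, plus strand): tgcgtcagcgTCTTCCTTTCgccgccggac
Rps26 (chr10:128626492-128626521, minus strand): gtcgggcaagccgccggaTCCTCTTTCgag
Rps23 (chr13:90923107-90923136, plus strand): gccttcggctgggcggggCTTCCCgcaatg
Rpl27 (chr11:101442230-101442259, plus strand): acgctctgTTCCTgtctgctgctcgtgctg
Tpt1 (chr14:75845241-75845270, plus strand): gtcaccgctgacgacagTTCCgggggagcc
A run of at least 6 letters C or T lay in this window, on the transcribed strand, in 37 of 68 promoters of the 58 ribosomal protein genes matched by gene identifier (54.4%) and in 6 of 13 promoters of the 12 that were called (46.2%), against 29.2% of all 32851 promoters. No sequence was at hand for Rpl3, Rpl23a and Rps29. Those of Rpl5, Rpl19, Rpl24, Rpl36a, Rps16 and Rps28 are left out above. Their longest runs were 2 letters in Rpl24, 4 in Rpl5 and Rps28 and 5 in Rps16 and Rpl36a. The annotated starts of Rpl19 had 5 and 11. The lines shown are thus richer in long runs than the called ribosomal protein genes as a set. For Hsph1, the heat shock letters GAANNTTC or TTCNNGAA, each of which reads the same on both strands, were searched in the 250 bases before and 50 bases from the start on. They were found 33 bases before 1 of its annotated starts and again as an overlapping pair after it, from bases 37 and 42 on, here with the matched letters of the upstream site and of the first of the pair in capitals.
Hsph1 upstream (chr5:149636351-149636380, minus strand): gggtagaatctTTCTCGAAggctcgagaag
Hsph1 downstream (chr5:149636287-149636316, minus strand): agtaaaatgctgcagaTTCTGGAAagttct
These letters were present in 15.1% of all promoters and in 15 of 46 promoters of 37 heat shock and co-chaperone genes (32.6%).

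Tpt1 (chromosome 14, 75845256-75848303, GRCm38.p6) had the lowest adjusted p. It encodes the translationally controlled tumour protein, and its mRNA is counted among the TOP mRNAs. In the window shown above its longest run of C or T was 4 letters, short of 6, and lay after the annotated start. That window thus does not show the motif. In control offspring its level was 394 and 392 RPKM in unstimulated and 189 and 197 RPKM in stimulated libraries. In Cd offspring it was 219 and 209 RPKM without and 239 and 233 RPKM with stimulation. Both Cd libraries thus lay below both control libraries in unstimulated cells and above both in stimulated cells. The log2 change on stimulation was -1.03 in control and 0.14 in Cd offspring, an interaction of 1.17 (standard error 0.069, adjusted p = 0.00436 from limma). It was called in 19 of 19 alternative settings, the fits without 1 library included, with values from 1.07 to 1.20.

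Rps27 (chromosome 3, 90212667-90213648) encodes a protein of the small ribosomal subunit. Its level was 187 and 181 RPKM in unstimulated and 67.0 and 71.2 RPKM in stimulated control libraries, against 89.8 and 101 RPKM and 86.2 and 84.3 RPKM in Cd libraries. The control libraries spanned a much wider range than the Cd libraries, which were near each other at both times. The interaction was 1.25 (standard error 0.092, adjusted p = 0.00892 from limma).

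Rpl23a (chromosome 11, 78180935-78183584) encodes a protein of the large subunit that sits near the exit of the nascent chain. In control offspring it was at 61.5 and 58.1 RPKM without and 51.2 and 51.1 RPKM with stimulation, and in Cd offspring at 32.3 and 24.7 RPKM without and 67.0 and 72.9 RPKM with stimulation. The groups did not overlap in either state. The log2 change on stimulation was -0.22 in control and 1.30 in Cd offspring, and the interaction was 1.53 (standard error 0.16, adjusted p = 0.0169 from limma), the largest among the called ribosomal protein genes. Of this, -1.08 lay between unstimulated and 0.45 between stimulated libraries of Cd and control offspring.

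Rpl3 (chromosome 15, 80077781-80083406), a large subunit protein next to the peptidyl transferase centre, was level in control offspring, with 190 and 197 RPKM before and 187 and 187 RPKM after stimulation. In Cd offspring it was at 125 and 124 RPKM before and 200.3 and 193 RPKM after stimulation. The 2 unstimulated Cd libraries were the low ones, and the other 6 lay between 187 and 200.3 RPKM. The interaction was 0.71 (standard error 0.063, adjusted p = 0.0102 from limma). Rpl27 was at 19.3 and 19.5 RPKM in unstimulated Cd libraries and at 28.5 to 36.7 RPKM in the others, with an interaction of 0.78 (adjusted p = 0.0102 from limma).

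**Figure D1:**
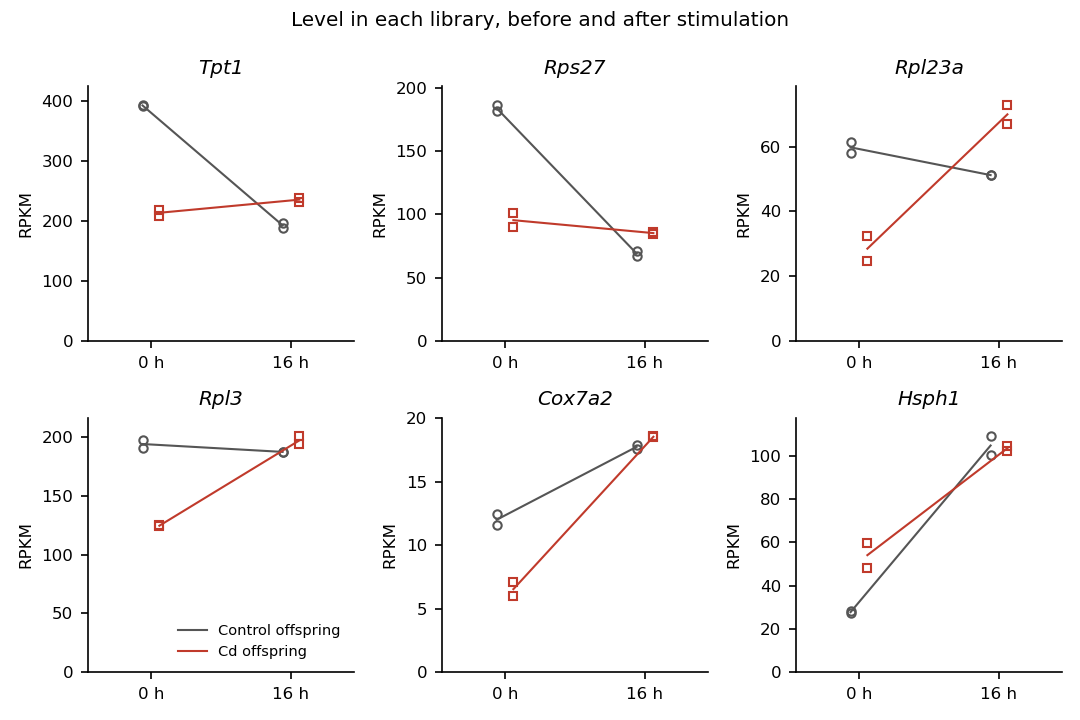
Level in RPKM (vertical axis, from 0) of 6 called genes in unstimulated (0 h) and stimulated (16 h) libraries, with 1 circle (control offspring) or square (Cd offspring) per library and lines through the group means. For Tpt1, Rps27, Rpl23a, Rpl3 and Cox7a2 the unstimulated Cd libraries lie below the control libraries, and for Hsph1 above them; in stimulated cells the Hsph1 libraries of both groups overlap at 101 to 109 RPKM.

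Over the whole list of 79 cytosolic ribosomal protein genes, all of which passed the filter, 17 were called, all positive. Beside Rpl3, Rpl23a, Rpl27 and Rps27, they included Rpl5, Rpl19, Rpl24, Rpl36a and Rplp2 of the large subunit and Rps10, Rps16, Rps23, Rps26, Rps28 and Rps29 of the small subunit. The interaction was above 0 for 77 of 79 genes, and 60 had an unadjusted p under 0.05, all positive, where 694 positive and 638 negative genes did so among all genes tested. The median interaction was 0.63, against -0.014 over all genes tested. The 2 genes below 0 were Rps12 at -0.088 and Rpl29 at -0.045, both smaller than their standard errors, so that even their sign was not resolved. Both were named after their values were seen. The number called was 0 without the stimulated Cd library 7, without the stimulated control library 6 or with no trend in the prior variance, 8 without the unstimulated control library 6, 10 without the stimulated Cd library 6, the unstimulated Cd library 6 or the unstimulated control library 7, and 42 with voom. The median interaction ran from 0.53 to 0.69 over all alternatives.

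The list divided by the direction of the response. In control offspring, 38 of the 79 genes fell on stimulation and 5 rose at an adjusted p under 0.05 (all genes tested: 27.8% fell and 36.9% rose). In Cd offspring 48 rose and 6 fell (all genes tested: 36.5% rose and 29.4% fell). The log2 change was below 0 in control and above 0 in Cd offspring for 49 genes, and the opposite held for 0 genes. Among all 12605 genes tested, 663 had the first pattern and 824 the second. The median log2 change of the list on stimulation was -0.22 in control and 0.36 in Cd offspring.

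**Figure D2:**
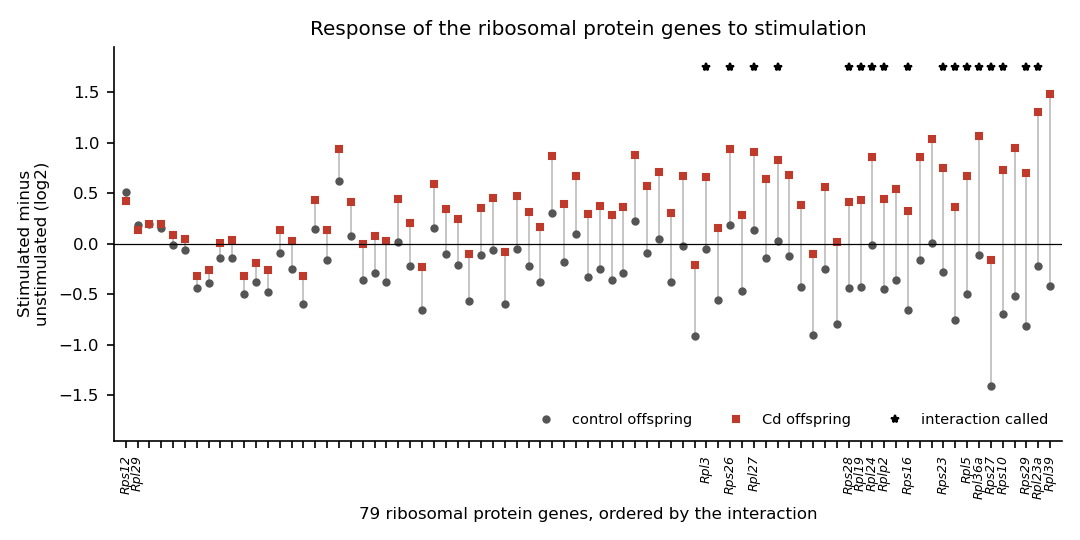
Log2 change on stimulation (vertical axis) of the 79 cytosolic ribosomal protein genes in control (circles) and Cd offspring (squares), ordered by the interaction, which is the length of the grey line, with names for genes given in the text; stars mark the 17 called genes. The squares lie above the circles for 77 of 79 genes, and Rpl39, at the right end, was not called, with an interaction of 1.90 and a standard error of 1.13.

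Most of the interaction of the list lay in unstimulated cells. The median Cd minus control difference was -0.52 in unstimulated and 0.075 in stimulated cells, and both Cd libraries lay below both control libraries in unstimulated cells for 72 of 79 genes, against 20.04% of all genes tested. The 79 genes together took 2.47% and 2.28% of the reads on genes in control libraries before stimulation and 1.98% and 2.06% after it. In Cd libraries they took 1.92% and 1.94% before and 2.07% and 2.08% after. By this sum, which the most abundant genes carry, the unstimulated control libraries were the high ones, and the other 6 spanned 1.92% to 2.08%. When each gene's log2 level was centred on its own average, the median over the 79 genes was 0.28 and 0.16 in unstimulated control, -0.35 and -0.20 in unstimulated Cd, -0.07 and 0.02 in stimulated control and 0.05 and 0.09 in stimulated Cd libraries, so that the unstimulated Cd libraries stood low as well.

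The size of the interaction varied with the level of the gene. The 26 genes with the highest mean (251 to 2071 RPKM) had a median interaction of 0.29, with 3 called. In the 26 next below (68.3 to 232 RPKM) the median was 0.64, with 7 called. In the 27 with the lowest mean (1.13 to 66.1 RPKM) it was 0.72, also with 7 called. These are descriptions, and the division was chosen after the values were seen.

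Copies of ribosomal protein genes were examined next. A row annotated as a pseudogene or without a RefSeq match was called a ribosomal protein copy here when at least 40% of the 25-base words of its transcript were also in a transcript of a ribosomal protein gene, a measure chosen after the calls were seen. Of 89 copies tested, 13 were called, all positive, and 80 had an interaction above 0, with a median of 0.90. The other 9 were below 0, the lowest at -0.87, and at an unadjusted p under 0.05 there were 54 positive and 3 negative copies. Reads of a gene and its copy cannot be told apart where they share sequence, so these rows are uncertain and are no evidence beyond that of their parent genes. The values of the parent genes carry the same limit. How far shared reads bear on them, and on the division by level above, was not tested. The closest copy was Gm10335 (chromosome 10, 14523062-14523596), which shares 94.4% of its words with Rpl23a. Its mean over the 8 libraries was 164 RPKM, above the 52.3 RPKM of Rpl23a. It had 203 and 176 RPKM in unstimulated and 171 and 159 RPKM in stimulated control libraries. In Cd libraries it had 108 and 117 RPKM without and 191 and 189 RPKM with stimulation, so that, as for Rpl23a, the Cd libraries lay below the control libraries in unstimulated and above them in stimulated cells. Its interaction was 0.95 (adjusted p = 0.0259 from limma).

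Among called genes with a mean of 1 RPKM or more, the largest positive interactions were, apart from that of Trdd1, whose reads are given further on, those of pseudogenes. Gm5621, a copy of Rpl10 by 67.5% of its words, was at 9.05 and 9.91 RPKM in unstimulated and 4.54 and 7.12 RPKM in stimulated control libraries, and at 2.73 and 2.91 RPKM and 10.1 and 9.69 RPKM in Cd libraries. Its interaction was 2.50 (standard error 0.26, adjusted p = 0.0169 from limma), on 39 to 182 reads per library. Gm5093, a copy of Rpl11 by 52.8%, had an interaction of 2.17, Rpl31-ps9 (Rpl31, 88.4%) one of 1.85 and Gm5451 (Rpl9, 72.3%) one of 1.55. The other called copies were Rpl5-ps2, Gm6252, Rps15a-ps4, Gm6030, Gm5879, Gm6988, Gm4342 and Gm2830. A pair of further pseudogenes was called without meeting the limit: Gm8692, which shares 25.1% of its words with Rps15, and Gm6402, whose transcript was not among those compared, with interactions of 1.78 and 1.82.

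Among coding genes outside the ribosomal list, 4 had a positive interaction that was called: Tpt1 and the following 3. Cox7a2 (chromosome 9, 79755241-79771422), a subunit of cytochrome c oxidase, was at 11.6 and 12.4 RPKM in unstimulated and 17.9 and 17.6 RPKM in stimulated control libraries, against 7.10 and 6.01 RPKM and 18.5 and 18.6 RPKM in Cd libraries. It thus rose in both kinds of offspring, from a lower level in Cd offspring, and its interaction was 0.93 (standard error 0.12, adjusted p = 0.0405 from limma). Gmfg, a regulator of actin branching in blood cells, fell in both, from 55.5 and 54.4 to 19.5 and 19.6 RPKM in control and from 38.2 and 40.2 to 19.8 and 20.7 RPKM in Cd offspring. Its interaction was 0.54 (adjusted p = 0.0405 from limma). Rps23rg1, a retroposed gene of Rps23 annotated as coding, was at 29.8 and 31.2 RPKM in unstimulated control and 13.5 and 16.6 RPKM in unstimulated Cd libraries, and its stimulated libraries overlapped between 19.7 and 21.4 RPKM. Gmfg and Rps23rg1 lie outside the naming rule and were named because they complete the count.

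Hsph1 (chromosome 5, 149616843-149636498) encodes HSP110, a nucleotide exchange factor that works with HSP70. Its level was 27.5 and 28.2 RPKM in unstimulated and 109 and 101 RPKM in stimulated control libraries. In Cd offspring it was 48.3 and 60.0 RPKM without and 105 and 102 RPKM with stimulation. The unstimulated Cd libraries stood above the control libraries, and the stimulated ones overlapped. Hsph1 rose on stimulation in both, by 1.91 on the log2 scale in control and by 0.94 in Cd offspring, and the interaction was -0.97 (standard error 0.14, adjusted p = 0.0462 from limma). Of 19 alternative settings 8 called it, and its value ran from -1.12 to -0.81.

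Of 49 heat shock and co-chaperone genes on the list, 46 were tested. Hsph1 was the one called, 35 had an interaction below 0, and the median was -0.095. An unadjusted p under 0.05 was reached by 13 negative genes and 1 positive gene. Both unstimulated Cd libraries lay above both control libraries for 22 of the 46, against 22.3% of all genes tested. Hsp90aa1, the inducible form of HSP90, was at 116 and 120 RPKM in unstimulated control and 162 and 151 RPKM in unstimulated Cd libraries, and between 153 and 165 RPKM in all 4 stimulated libraries. Its interaction was -0.42 (standard error 0.083, adjusted p = 0.137 from limma), and it was called for Cd against control in unstimulated cells (adjusted p = 0.0333 from limma). Chordc1 and Ahsa1, co-chaperones of HSP90, had interactions of -0.62 and -0.32, with adjusted p-values of 0.234 and 0.220. The TRiC chaperonin, which folds actin and tubulin, had 8 of 8 subunits below 0 and 0 called, with a median of -0.089. Its lowest values were those of Cct3 (-0.36) and Cct8 (-0.24).

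**Figure D3:**
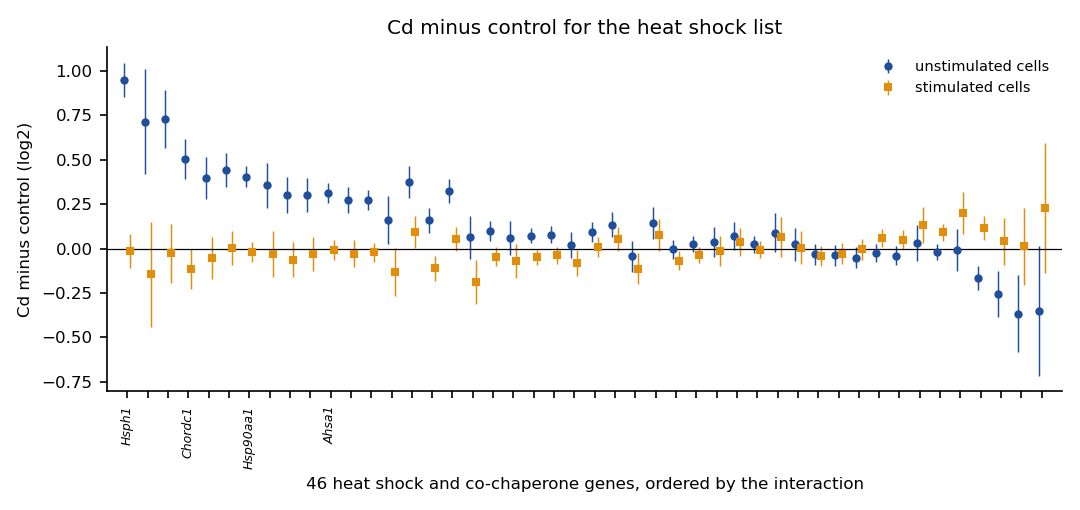
Cd minus control log2 difference (vertical axis, with its standard error as bars) of the 46 heat shock and co-chaperone genes in unstimulated (circles) and stimulated cells (squares), ordered by the interaction and with names for genes given in the text. At the left the circles stand above 0, up to 0.95 for Hsph1, while the squares of the same genes stay near 0.

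Where the interaction came from was described by the 2 differences that compose it. A gene was put under unstimulated cells when the Cd minus control difference there was at least 2 times that in stimulated cells, under stimulated cells when the reverse held, and under both otherwise. Of the 38 positive genes, 32 fell under unstimulated cells, 1 under stimulated cells and 5 under both; of the 7 negative genes it was 3, 2 and 2. For all 38 positive genes both unstimulated Cd libraries lay below both control libraries (20.04% of all genes tested). For 31 of the 38 both stimulated Cd libraries lay above both stimulated control libraries (16.02% of all genes tested). The median Cd minus control difference of the 38 was -0.88 in unstimulated and 0.29 in stimulated cells. On stimulation, 30 of the 38 had a log2 change below 0 in control and above 0 in Cd offspring (663 of all 12605 genes tested). The 38 were picked by an interaction computed from these same libraries, which favours such patterns. These counts therefore describe the called genes and are no separate support. Taken alone, the comparison of Cd with control offspring called 113 genes in unstimulated cells (0.896%) and 0 in stimulated cells (0%; 414 had an unadjusted p under 0.05 with limma, and 0 were called with voom on the recovered reads). The unstimulated count was 19 without the unstimulated control library 6, 61 without either stimulated Cd library and 67 without the unstimulated control library 7. Of the 45 genes, 40 were also called in unstimulated cells, which shares libraries with the interaction and adds no separate evidence.

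The 5 positive genes under both were Rps23, Gm5093, Rps15a-ps4, Gm4342 and Gm2830. Rps23, a small subunit protein of the decoding centre, had 112 and 90.9 RPKM in unstimulated and 79.8 and 86.3 RPKM in stimulated control libraries, and 64.2 and 64.3 RPKM and 111 and 106 RPKM in Cd libraries. Its difference was -0.65 in unstimulated and 0.39 in stimulated cells, short of the limit of 2 times, and its interaction was 1.04. No coding gene fell under stimulated cells alone. With limits of 1.5 and 3 times, 36 and 20 of the 38 positive genes fell under unstimulated cells.

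**Figure D4:**
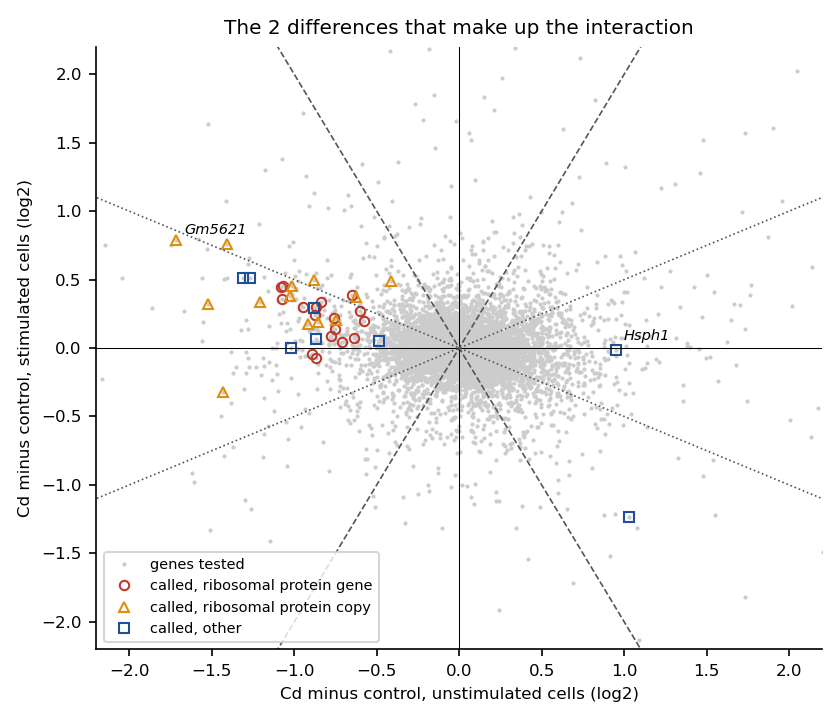
Cd minus control log2 difference in unstimulated (horizontal axis) against stimulated cells (vertical axis) for all genes tested (grey) and the called genes by kind. Genes between the dotted lines along the horizontal axis were put under unstimulated cells, and those between the dashed lines along the vertical axis under stimulated cells; 38 of the 45 called genes lie within the axis limits of 2.2, and the called ribosomal protein genes and copies lie at the left.

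The remaining called rows were short RNAs and gene segments with few reads. Their fitted values depend on the pseudocount, so reads are given here, and the fitted values only in the list of flagged results. Mir669k had 0 and 0 reads in unstimulated and 1 and 1 in stimulated control libraries, and 5 and 4 and then 0 and 0 in Cd libraries. Mir101b, the 1 positive gene under stimulated cells, had 2 and 3 and then 0 and 0 reads in control and 2 and 2 and then 2 and 4 in Cd libraries. Trgj4 and Mir361, which fell under stimulated cells, had 0 reads in both stimulated Cd libraries and at most 6 elsewhere. Mir1934 and Mir1249 had 0 reads in both unstimulated control libraries and at most 6 elsewhere, Scarna3a had 3 to 9 reads per library, and Trdd1, a D segment of 9 nucleotides, had 2 and 1 reads in unstimulated control libraries and 0 elsewhere. None of these 8 rows reached 10 reads in any library. Without them, 37 of the 45 called genes are left, 36 positive and 1 negative.

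Just inside the threshold were Rps10 (adjusted p = 0.0477) and Mir1249 (0.0486), and just outside were the pseudogene Gm9354 (interaction 1.61) and Pold4, a subunit of DNA polymerase delta (0.75), both with an adjusted p of 0.0535 from limma.

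Other lists around the ribosome and the mitochondrion held 2 genes called by limma. Of 21 translation factors and other TOP mRNAs tested, Tpt1 was called; 15 were above 0, the median was 0.12, and 5 had an unadjusted p under 0.05, among them Naca (0.31) and Eef1g (0.27). Of 40 genes of ribosome biogenesis and RNA polymerase I, 0 were called by limma, 3 positive and 4 negative genes had an unadjusted p under 0.05, and all 40 rose in both control and Cd offspring. The largest values there were those of Fbl (0.42) and Nop10 (0.37), which belong to the small nucleolar ribonucleoproteins. Of 75 mitochondrial ribosomal protein genes 0 were called, with 3 positive and 2 negative at an unadjusted p under 0.05 and a median of 0.063. Among 73 nuclear genes of oxidative phosphorylation, Cox7a2 was called, 65 were above 0, 26 had an unadjusted p under 0.05, all positive, and the median was 0.14. Cox5b (0.69, adjusted p = 0.0758), Cox7c (0.70, 0.126) and Ndufa7 (0.55, 0.159) did not pass with limma, while voom called 2 genes of the list, Cox5b among them (adjusted p = 0.0430). Of 13 mitochondrially encoded genes 0 were called by limma and 4 by voom, and 5 had an unadjusted p under 0.05, among them COX3 (0.86, adjusted p = 0.0809 from limma) and ND4L (0.81, 0.0653). Their median of 0.066 turned negative without the unstimulated control library 6 (-0.044), the unstimulated Cd library 6 (-0.016) or the stimulated Cd library 6 (-0.0052).

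**Figure D5:**
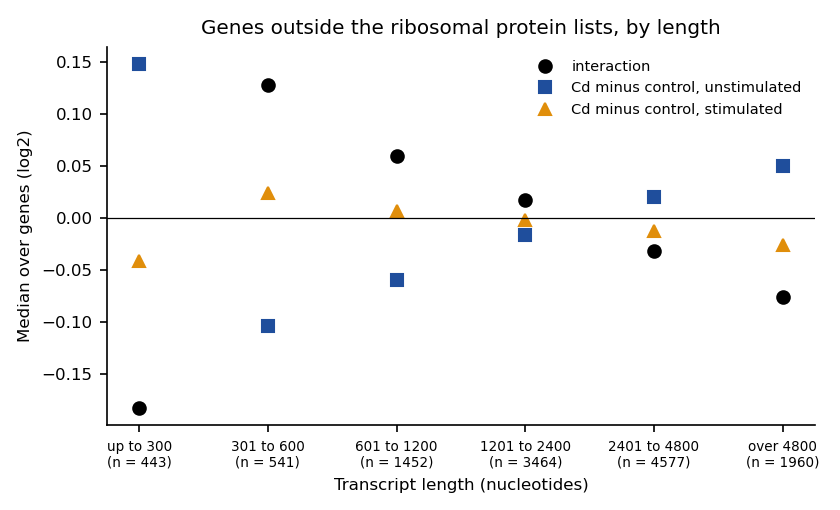
Median log2 value (vertical axis) of the genes outside the ribosomal protein lists, by transcript length (horizontal axis, with the number of genes), for the interaction (circles) and the Cd minus control difference in unstimulated (squares) and stimulated cells (triangles). From 301 nucleotides on, the median interaction runs from 0.128 down to -0.0755 in genes over 4800 nucleotides, and genes of up to 300 nucleotides stand at -0.182.

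Transcript length moved with the interaction. Outside the ribosomal protein genes and copies, the median interaction was 0.128 in 541 genes of 301 to 600 nucleotides, 0.0595 at 601 to 1200, 0.0179 at 1201 to 2400, -0.0316 at 2401 to 4800 and -0.0755 in 1960 genes over 4800 nucleotides. In the 443 genes of up to 300 nucleotides it was -0.182. The called coding genes other than Hsph1 were short, with 328 to 2019 nucleotides, and Hsph1 was counted over 3478. The part of length in the calls was not tested. Other coding genes of 301 to 600 and of 601 to 1200 nucleotides had medians of 0.173 (194 genes) and 0.0789 (1036 genes), against 0.63 in the 79 ribosomal protein genes. Those 79 were not limited to these lengths or matched in level, so this comparison is a description only.

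Lists of T cell activation held no gene called by limma. Of 32 tested genes of activation and cytokines 0 were called by limma or voom, with 6 positive and 2 negative at an unadjusted p under 0.05 and a median of -0.011 that had no stable sign, at 0.084 without the stimulated Cd library 6 and -0.027 without the stimulated control library 6; the largest t was that of Tnfrsf18, which encodes the receptor GITR (0.26, adjusted p = 0.180 from limma). Of 26 proliferation genes 0 were called by limma or voom, 0 positive and 2 negative had an unadjusted p under 0.05, and the lowest was Tk1 (-0.58). Of 26 immediate early and AP-1 genes 0 were called by limma and 1 by voom, 22 were above 0 and 5 had an unadjusted p under 0.05, with a median of 0.30 that was 0.095 without the unstimulated Cd library 7 and 0.57 without the unstimulated Cd library 6. Fos, which encodes a subunit of AP-1, was at 577 and 651 RPKM in unstimulated and 11.1 and 11.2 RPKM in stimulated control libraries. In Cd libraries it was at 570 and 531 RPKM and 16.3 and 14.3 RPKM, so that its difference lay in stimulated cells, at 0.45 against -0.16 in unstimulated cells. Its interaction was 0.61 (adjusted p = 0.135 from limma), and that of Fosb was 0.62, also with the larger difference, 0.64, in stimulated cells. Neither was called by limma, and voom called Fos with an adjusted p of 0.0493.

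Of 31 interferon-stimulated genes 28 were below 0, with a median of -0.36 and 0 called by limma (0 positive and 2 negative at an unadjusted p under 0.05), and 1 library decided this: without the stimulated Cd library 6 the median was -0.024, and without each other library in turn it ran from -0.54 to -0.21. The summed level of the list was 530.0 RPKM in that library and 763 to 864 RPKM in the other 3 stimulated libraries. Oasl1 had an interaction of -0.81 and Gbp5, an interferon-induced GTPase, one of -0.70. Gbp5 was at 18.2 and 33.5 RPKM in stimulated Cd libraries and 35.7 and 40.3 RPKM in stimulated control libraries. Lists of the response to metals (28 genes tested, median 0.027), unfolded protein and integrated stress response (29, -0.061), proteasome subunits (34, -0.022) and snoRNA host lncRNAs (18, 0.079) had 0 called by limma or voom. Their medians moved with single libraries, for metals to 0.0039 without the unstimulated Cd library 7, for proteasome subunits to 0.025 without the stimulated Cd library 6, and for snoRNA hosts to 0.215 and -0.019 without the unstimulated Cd libraries 6 and 7, respectively. Of the genes that the study followed, Snhg7 had an interaction of 0.17 (standard error 0.16), Galnt7 one of -0.16 (0.14), Galnt1 one of -0.080 (0.099) and the reference gene Actb one of -0.090 (0.13), and none of them was called in any of 19 alternatives. Over these, Snhg7 ran from 0.0094, without the unstimulated control library 7, to 0.32, without the unstimulated control library 6. Galnt7 ran from -0.31 to -0.019, without the unstimulated Cd libraries 6 and 7, respectively, and Actb from -0.21 to -0.026. The study's result on Snhg7 and Cd came from qPCR in both sexes, and its result on GALNT7 from protein. The values here are from other samples or measures and do not test those results.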

How the data were processed

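RNA-seq was made from 8 libraries, 2 in each of 4 groups. Per the study's methods, the authors used Subread for alignment (mm10) and featureCounts for counts per gene, in versions not given in the sources used here. The authors deposited log2 values, which proved to be log2(RPKM + 1) plus 0.0001, where plain RPKM had been planned for. They were turned back to RPKM, which the authors had scaled to the total of each library. Whole reads, to within 0.0001 of a whole number, were recovered for all 12605 genes tested. limma 3.58.1 (R 4.3.3) was fitted to log2(RPKM + 0.1) with 4 group means and a trended prior variance, so folds of low genes are understated. Genes with a mean of at least 0.5 RPKM were tested, two-sided, with Benjamini-Hochberg adjustment, and called under 0.05. Alternatives changed the pseudocount, filter, scaling, prior, replicate block and source limit, used voom on the recovered reads, or left out each library. Within-batch values could not be given, because the labels name no batch. Tables were made with Python 3.11.15, pandas 2.3.3 and numpy 2.4.6, and figures with matplotlib 3.10.9. The fit was tested on simulated data, with changed genes drawn from the more expressed ones. Of 50 genes each with a simulated interaction of -2, -1, 1 and 2, it called 49, 41, 44 and 49. It also called 16 genes that had no simulated interaction. The simulated noise was each gene's fitted spread with counting noise added, so the test could not check that spread itself.

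Genes were named by rule: Hsph1 and Rpl23a, then up to 10 called genes per direction and source class with the largest interaction at a mean of at least 1 RPKM, then up to 4 genes per list with the largest moderated t and the genes the study followed. Called genes beyond the rule were named to complete counts. Some items counted here are not reported by name. The members and lists were chosen with earlier results of these data known.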

Additional observations from a re-analysis of the deposited data

Results flagged for a closer look

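The response to stimulation differed between Cd and control offspring for 45 genes by the test of the interaction (limma, adjusted p under 0.05), and those reported here are given with their interaction on the log2 scale. Coding genes outside the ribosomal list were Tpt1 at 1.17, Cox7a2 at 0.93, Gmfg at 0.54, Rps23rg1, a retroposed gene of Rps23, at 1.02 and Hsph1 at -0.97.

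Proteins of the large subunit were Rpl23a at 1.53, Rpl36a at 1.18, Rpl5 at 1.17, Rplp2 at 0.90, Rpl24 at 0.87, Rpl19 at 0.86, Rpl27 at 0.78 and Rpl3 at 0.71. Proteins of the small subunit were Rps29 at 1.52, Rps10 at 1.43, Rps27 at 1.25, Rps23 at 1.04, Rps16 at 0.98, Rps28 at 0.85 and Rps26 at 0.75.

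Pseudogenes and rows without a RefSeq match, whose reads may be those of their parent genes, were Gm5621 at 2.50, Gm5093 at 2.17, Rpl31-ps9 at 1.85, Gm6402 at 1.82, Gm8692 at 1.78, Gm5451 at 1.55, Rpl5-ps2 at 1.46, Gm6252 at 1.40, Rps15a-ps4 at 1.38, Gm6030 at 1.11, Gm5879 at 1.09, Gm6988 at 1.05, Gm10335 at 0.95, Gm4342 at 0.999 and Gm2830 at 0.90.

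The rows with under 10 reads in every library, whose fitted values depend on the pseudocount and are no bound, were Trdd1 at 6.54, Mir101b at 4.22, Scarna3a at -2.26, Mir361 at -4.19, Trgj4 at -5.04, Mir1934 at -5.46, Mir1249 at -5.69 and Mir669k at -6.69.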

How the results depend on the processing

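Against 45 calls (38 positive, 7 negative; 35, 3 and 7 under unstimulated, stimulated and both; 17 ribosomal protein genes; 113 and 0 for Cd against control in unstimulated and stimulated cells), no trend in the prior variance gave 4 (3 and 1; 2, 1 and 1; 0 ribosomal; 14 and 2). With no filter there were 28 (23 positive; 19, 6 and 3; 8 ribosomal; 65 and 9), and with voom 111 (101 positive; 95 under unstimulated and 14 under both; 42 ribosomal; 211 unstimulated). The negative count was 3 with a minimum mean of 1 RPKM and 4 with median-of-ratios scaling or a pseudocount of 0.5 or 1; the count under stimulated cells was then 1 with the higher minimum and 0 with either pseudocount. Robust eBayes called 1 gene in stimulated cells. Source limits of 1.5 and 3 times put 2 and 21 genes under both, and the latter 22 under unstimulated cells. Without 1 library, in fits that assume that the lone sample left varies like the other groups, calls ran from 2 to 63 (positive 2 to 58, negative 0 to 14; unstimulated 1 to 53, stimulated 0 to 4, both 0 to 10; ribosomal 0 to 23; Cd against control 19 to 105 in unstimulated and 0 to 3 in stimulated cells). Deviations of same-numbered libraries correlated at 0.0635, 0.00851, 0.0123 and -0.0414. This cannot decide whether the numbers 6 and 7 pair the samples, because libraries of the same animal can also deviate separately. A replicate block by number called 36 genes (2 negative; 4 under both), and a replicate block within exposure 25 (22 positive, 3 negative; 6 ribosomal). Of 815 refits of the called genes named here 471 kept the call, 344 lost it and 0 reversed; of 551 of named genes not called 13 passed the threshold and 5 reversed. These were Rps12 (-0.27 to 0.090 without 1 library) at 0.090 without the unstimulated Cd library 6, Rpl29 (-0.14 to 0.052) at 0.00055, 0.014 and 0.052 without the stimulated Cd library 6, the unstimulated Cd library 7 and the unstimulated control library 7, and Galnt1 (-0.17 to 0.0075) at 0.0075 without the last of these. The causes were not tested. With 2 libraries a group, the calls depend on how the spread is estimated, while the signs of the 45 interactions did not change.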
